A study of Rattus norvegicus with 4 samples.

Results

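Cytochrome c oxidase, ATP synthase, the phosphotransfer kinases and other genes of mitochondrial respiration and energy transfer were described in mesenteric white adipose tissue of female Wistar rats. The members were found by their spot names on nylon cDNA arrays, as names holding mitochondrial, cytochrome c oxidase, ATP synthase, NADH, uncoupling, adenylate kinase or cytochrome b5. Names of fatty acid oxidation, P450, heat shock, superoxide, glutathione, pyruvate and malate genes were left out. Some further spots were left out by their position code. This gave 26 of the 1185 spots. Among them, 6 were spots of cytochrome c oxidase, 6 of ATP synthase, 4 of adenylate and creatine kinases, 1 of cytochrome b5 and 5 of other mitochondrial proteins. The remaining 4 carry one of these words for another reason. They are the 16-kDa subunit of the vacuolar ATP synthase, the ribosomal protein Fte-1/RPS3A, and the 14-3-3 proteins zeta/delta and epsilon. The names of both 14-3-3 proteins also hold a mitochondrial import factor. These 4 were followed apart from the other 22, called the mitochondrial members here. That name is loose for cytochrome b5, which serves the endoplasmic reticulum, and for adenylate kinase 1, a cytosolic form. After these exclusions 0 members carried NADH or uncoupling in their names, so that complex I and the uncoupling proteins were not analysed here. The 2 control rats received oil alone (0.2 ml by gavage) and the 2 OE rats oleoyl-estrone, the oleic acid ester of estrone, at 10 μmol/kg per day in the same oil. The tissue was taken at 48 h and each rat was hybridized on its own array, named here control 1, control 2, OE 1 and OE 2. The age of the rats is not given in the sources used here.

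In mitochondria, the respiratory chain passes electrons from nutrients to oxygen and pumps protons across the inner membrane. Cytochrome c oxidase (complex IV) is its last enzyme, and ATP synthase uses the proton gradient to make ATP. Adenylate and creatine kinases move phosphate between nucleotides and creatine, by which they spread and buffer the ATP made. All cytochrome c oxidase and ATP synthase subunits measured here are encoded in the nucleus. White adipocytes hold few mitochondria for their size, which serve fatty acid synthesis and storage as well as oxidation.

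Many nuclear genes of respiration are known targets of NRF-1 and of factors of the ETS family such as NRF-2. Of the 25 members described singly, 11 were matched to a gene symbol in RefSeq (10 by a symbol in the spot name and subunit c P2 by its subunit name), and 8 of these had a promoter in its table of the GRCr8 assembly. The 250 bases upstream of the start are shown for 4 of them. They are a cytochrome c oxidase subunit and an ATP synthase subunit that had higher levels on control 2 than on the other arrays, and the P1 and P2 genes of ATP synthase subunit c, whose patterns differed from these and from each other. Capitals mark exact matches to CCGGAAG, a string taken for ETS factors, and CGCATGCGC, a string taken for NRF-1, each searched on both strands. Shorter or varied sites of these factors were not searched. The first is held by 7.27% and the second by 1.35% of the 33469 promoters of this length. The regions are chr9:46417587-46417836 on the plus strand for COX5B (Cox5b), chr7:1099808-1100057 on the plus strand for ATP synthase beta (Atp5f1b), chr10:81523346-81523595 on the minus strand for subunit c P1 (Atp5mc1) and chr7:135678219-135678468 on the minus strand for subunit c P2 (Atp5mc2).
COX5B: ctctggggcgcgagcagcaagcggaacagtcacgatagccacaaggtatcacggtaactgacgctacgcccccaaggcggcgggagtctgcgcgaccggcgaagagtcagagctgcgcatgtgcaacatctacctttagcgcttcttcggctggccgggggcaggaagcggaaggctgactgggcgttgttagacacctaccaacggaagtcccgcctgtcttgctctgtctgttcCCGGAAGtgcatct
ATP synthase beta: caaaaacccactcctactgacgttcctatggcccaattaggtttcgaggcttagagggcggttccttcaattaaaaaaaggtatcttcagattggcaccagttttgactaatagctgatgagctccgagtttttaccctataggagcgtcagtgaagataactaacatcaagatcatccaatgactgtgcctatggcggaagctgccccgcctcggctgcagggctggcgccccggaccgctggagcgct
ATP synthase subunit c P1: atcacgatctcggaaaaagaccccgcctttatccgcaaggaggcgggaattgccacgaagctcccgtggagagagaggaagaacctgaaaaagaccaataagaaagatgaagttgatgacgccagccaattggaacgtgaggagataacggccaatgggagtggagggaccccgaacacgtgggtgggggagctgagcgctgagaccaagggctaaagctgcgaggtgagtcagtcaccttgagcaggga
ATP synthase subunit c P2: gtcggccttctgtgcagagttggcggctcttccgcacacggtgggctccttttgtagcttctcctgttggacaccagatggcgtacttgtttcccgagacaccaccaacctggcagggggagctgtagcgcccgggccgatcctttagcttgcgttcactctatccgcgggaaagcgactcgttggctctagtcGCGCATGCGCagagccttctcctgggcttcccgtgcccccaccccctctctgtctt
COX5B held 1 match to the ETS string close to its start. P2 held the NRF-1 string on both strands in overlapping letters (2 matches), and P1 and beta held neither string. Of the 8 promoters, 1 held the ETS string and 1 the NRF-1 string.

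Signal was read as adjusted intensity, the spot minus the background of its array, which was between 54 and 61. A spot whose adjusted intensity reached 2 times the background (108 to 122) is called detected. By this limit 16 of the 26 members (61.5%) were detected on at least 1 array and 9 on all 4, against 285 (24.1%) and 100 of all 1185 spots. Among the 22 mitochondrial members, 12 were detected on at least 1 array, 5 on all 4 and 10 on none. Levels are given below in array medians, which is the adjusted intensity over the 50th percentile of that array. This percentile was 14 in control 1 and 9 in control 2, and 22 in OE 1 and 17 in OE 2, so that control 2 had the smallest divisor. In bulk tissue, fewer cells of a type and less RNA per cell cannot be told apart.

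**Figure D1:**
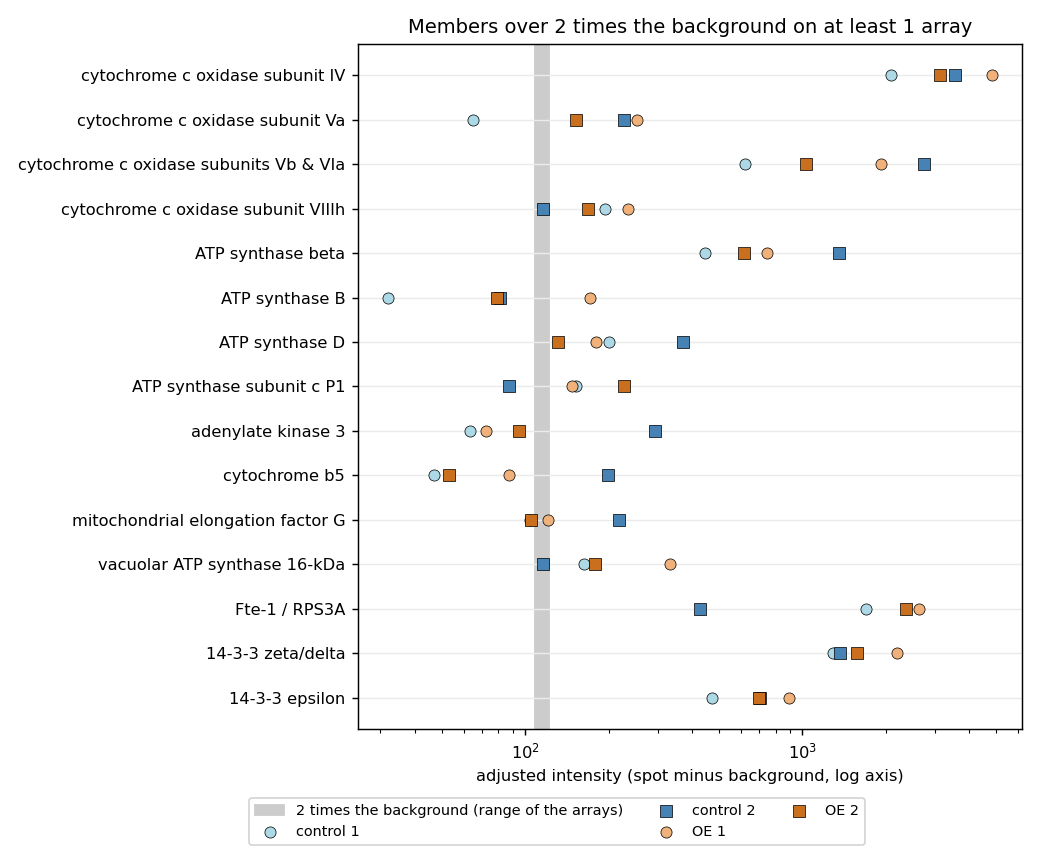
Adjusted intensity (x axis, log scale) of 15 members detected on at least 1 array, 1 point per array, with the range of 2 times the background in grey. Control 2 lies furthest right for 6 of them, among them ATP synthase beta at 1360, and furthest left for 4, among them Fte-1/RPS3A at 428.

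The tissue on the 4 arrays was not alike. The summed level of 5 adipocyte genes (FABP4, LPL, HSL, FAS and leptin) was 267 array medians in control 1 and 2251 in control 2, and 427 in OE 1 and 522 in OE 2. That of 10 leukocyte genes, among them CD45, CD5 and CD3 gamma, was 270 in control 1 and 29.6 in control 2, and 298 in OE 1 and 148 in OE 2. Thus control 2 had the highest adipocyte and the lowest leukocyte sum, and control 1 the lowest adipocyte sum. The adipocyte sum was mostly FABP4, at 252 array medians in control 1 and 2115 in control 2. CD45 was the largest part of the leukocyte sum, at 145.6 array medians in control 1 and 7.89 in control 2. Control 2 was not the lowest array for CD4, which had 8 there and 6.41 in OE 2. FAS was also highest in control 2 (20.2), but higher in control 1 (4.29) than in OE 1 (1.77) and OE 2 (0.882). Of the adipocyte genes 4 of 5 were detected on at least 1 array, and leptin, a defining adipocyte gene, was detected on none. Of the 10 leukocyte genes 8 were detected on at least 1 array, CD28 and CD2 on none, and none of the 10 on control 2. Of 5 intestine genes, 4 were detected on OE 2 and none on the other arrays, with sums of 273 array medians on OE 2 and between 1.44 and 3.14 elsewhere. The 3 muscle genes and the 4 pancreas genes were detected on no array, with sums of at most 3.64 and 2.06 array medians. The part of these cell types in the results below was not tested.

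For most mitochondrial members the controls lay further apart than the OE rats. After a floor at 0.235 array medians, 23 members entered the comparison, having both values of at least 1 group over that floor. The ratio of the OE mean to the control mean was under 0.5 for 9 of the 23, where 18.3% of all 922 genes that entered had such a ratio. It was over 1.5 for 2, against 18.9% of all genes. Of the 9 lower ratios, 8 were those of cytochrome c oxidase Vb & VIa, 3 ATP synthase subunits (alpha, beta and D), adenylate kinase 3, cytochrome b5, sterol 26-hydroxylase and mitochondrial elongation factor G. Those over 1.5 were ATP synthase subunit c P2 and Fte-1/RPS3A. With scaling to the housekeeping genes 20 were under 0.5 (45.2% of all genes) and 1 over 1.5 (5.14%), and with no scaling 2 (3.04%) and 5 (50.7%). Over all 26 members, with no filter, 10 ratios were under 0.5 (17.05% of all 1185 genes) and 3 over 1.5 (17.22%). Both OE rats were lower than both controls for 5 of the 23 (15.8% of all genes) and higher than both for 1 (14.1% of all genes), and the groups overlapped for the other 17. The median log2 ratio was -0.74 over the 23 members and -0.16 over all 922 genes.

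Many of these ratios rested on control 2, but not all. That of sterol 26-hydroxylase was 0.393 with both controls and 0.377 without control 2, and that of subunit c P2 was 4.08 and 14.6. For the 23 members, the level on control 2 was the highest of the 4 arrays in 17 (73.9%), against 45.3% of all genes, and the median ratio of control 2 to control 1 was 3.42, against 1.27 over all genes. The controls differed by over 2-fold for 18 of the 23 members (78.3%) and 57.6% of all genes, but the OE arrays for 1 (4.35%) and 22.5%. Without control 2, 1 member had a ratio under 0.5 (12% of all genes) and 7 had a ratio over 1.5 (29.6%). Without control 1, with all 26 members entering, the counts were 16 (31.0% of all genes) and 3 (27.1%). limma, fitted on the 922 genes, called 0 of the 23 members and 0% of all genes at a Benjamini-Hochberg adjusted p under 0.05, with adjusted p between 0.957 and 0.989 for the members. At an unadjusted p under 0.05 it gave 0 of the members and 19 of all genes, and the lowest unadjusted p of a member was 0.0587, that of subunit c P2, which entered through the OE arrays alone. With 2 arrays against 2, an exact permutation test of 1 gene cannot go below a two-sided p of 0.333, and none was run. limma thus called no member different between OE and control rats. It draws the spread of each gene toward that of all genes. With 2 arrays a group, a missing call does not show an unchanged level.

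**Figure D2:**
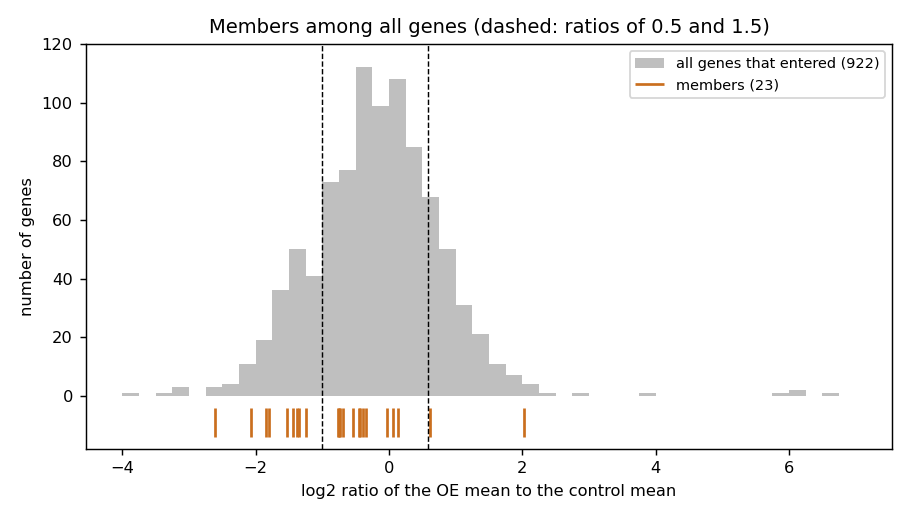
Number of genes (y axis) by log2 ratio of OE to control (x axis) for the 922 genes that entered, with the 23 members as ticks under the axis and dashed lines at ratios of 0.5 and 1.5. Of the members, 9 lie left of the lower line and 2 right of the upper one.

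**Figure D3:**
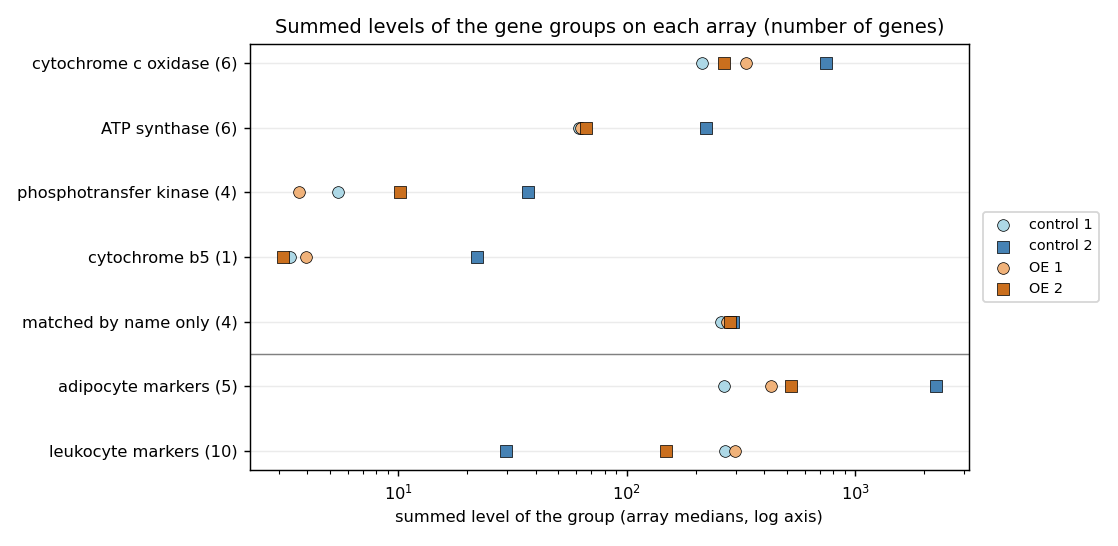
Summed level (x axis, array medians, log scale) of each gene group on the 4 arrays, with the adipocyte and leukocyte markers under the line. The groups of cytochrome c oxidase, ATP synthase, phosphotransfer kinases and cytochrome b5 each have their highest sum on control 2, as have the adipocyte markers. The sum of the 4 genes matched by name alone lies between 259 and 291, with both 14-3-3 genes highest and Fte-1/RPS3A lowest on control 2.

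Cytochrome c oxidase transfers electrons from cytochrome c to oxygen. Its 6 spots summed to 212 array medians in control 1 and 746 in control 2, and 332 in OE 1 and 266 in OE 2, so that the OE rats lay between the controls. The 6 spots entered with ratios between 0.423 and 0.767, and 1 was under 0.5. Subunit IV, which binds ATP and tunes the enzyme to energy supply, had adjusted intensities of 2085 in control 1 and 3561 in control 2, and 4841 in OE 1 and 3141 in OE 2. Before scaling OE 1 was thus the brightest array, and after it control 2 was the highest, at 396 array medians against 149 in control 1, 220 in OE 1 and 185 in OE 2. The means were 272 ± 174.5 array medians (SD, n = 2) for the controls and 202 ± 24.9 (SD, n = 2) for the OE rats, a ratio of 0.743. Its log2 difference by limma was -0.27 (standard error 0.73, adjusted p = 0.983). Against control 2 alone the ratio was 0.512 and against control 1 alone 1.36.

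The spot named for subunits Vb & VIa carries 2 accessions, so that its signal stands for either subunit. It had adjusted intensities of 618 in control 1 and 2749 in control 2, and 1922 in OE 1 and 1031 in OE 2. Both OE rats lay between the controls, which themselves differed by 6.92-fold in array medians. The means were 175 ± 185 array medians (SD, n = 2) for the controls and 74.0 ± 18.9 (SD, n = 2) for the OE rats. The ratio of 0.423 became 1.68 without control 2, and limma gave a log2 difference of -0.67 (standard error 1.06, adjusted p = 0.957). Subunit Va, a matrix-side subunit, had adjusted intensities of 65 in control 1 and 227 in control 2, and 253 in OE 1 and 153 in OE 2, and was detected on all arrays but control 1. The mean was 14.9 ± 14.55 array medians (SD, n = 2) for the controls and 10.2 ± 1.77 (SD, n = 2) for the OE rats. Its ratio was 0.686, and 2.21 without control 2, with a limma log2 difference of -0.09 (standard error 0.96, adjusted p = 0.989). The heart form of VIa and subunit VIIa were detected on no array, with adjusted intensities between 3 and 14 and between 10 and 47. They had ratios of 0.589 and 0.594 at these low signals, with control 1 under the floor for the heart form.

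In array medians, the detected spots for IV, Va and Vb & VIa had the same order of arrays, with control 1 lowest, then OE 2, OE 1 and control 2. Of the 5 adipocyte genes, LPL and HSL had this order and FABP4, FAS and leptin had others. Control 1 was lowest and control 2 highest, with the OE arrays in either order, for 11 of the 23 members and 206 of all 922 genes. In adjusted intensity IV and Va were highest on OE 1. The fourth detected spot was VIIIh, a form named for heart, with adjusted intensities of 194 in control 1 and 116 in control 2, and 234 in OE 1 and 168 in OE 2. It was the cytochrome c oxidase spot whose controls were close, at 13.4 ± 0.685 array medians (SD, n = 2), and OE rats had 10.3 ± 0.533 (SD, n = 2). Both OE rats lay below both controls, with a ratio of 0.767 that lay between 0.739 and 0.796 with any 1 array left out. Its limma log2 difference was -0.38 (standard error 0.57, adjusted p = 0.957). Without scaling between arrays its ratio was 1.30, so that its direction depended on the scaling.

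ATP synthase makes ATP in its catalytic head, built of alpha and beta subunits, which is driven by a ring of c subunits in the membrane and held by a stalk with the B and D subunits. The 6 spots summed to 61.5 array medians in control 1 and 222 in control 2, and 62.8 in OE 1 and 66.4 in OE 2. By this sum the OE rats were close to control 1, and control 2 stood apart. Most of the sum was the beta spot, at 31.7 array medians in control 1 and 151 in control 2. The spots of B, D, P1 and P2 had other patterns, given below. Of the 6 spots 3 had a ratio under 0.5, 1 over 1.5 and 2 between. The beta subunit, which holds the catalytic sites, had adjusted intensities of 444 in control 1 and 1360 in control 2, and 746 in OE 1 and 614 in OE 2. In array medians the OE rats had 35.0 ± 1.56 (SD, n = 2) and the controls 91.4 ± 84.4 (SD, n = 2), with 31.7 on control 1. Its ratio was 0.383 with both controls and 1.10 without control 2, and its log2 difference by limma was -0.98 (standard error 0.91, adjusted p = 0.957).

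The D subunit of the stalk had adjusted intensities of 201 in control 1 and 370 in control 2, and 180 in OE 1 and 131 in OE 2. It was detected on all 4 arrays and both OE rats lay below both controls. Its levels were 27.7 ± 18.9 array medians (SD, n = 2) for the controls and 7.94 ± 0.337 (SD, n = 2) for the OE rats, a ratio of 0.286. This ratio was 0.193 without control 1, 0.553 without control 2 and 0.278 and 0.295 without either OE array. It was 0.188 with scaling to the housekeeping genes, 0.385 with scaling to the genes detected on all 4 arrays and 0.545 with no scaling. The D subunit was thus on the lower side in each of these settings, although over the 0.5 cutoff in some of them, and limma gave a log2 difference of -1.61 (standard error 0.74, unadjusted p = 0.0822, adjusted p = 0.957). The alpha subunit had the same separation in array medians only, with 2.071 in control 1 and 9.222 in control 2, and 1.955 in OE 1 and 1.941 in OE 2. Its adjusted intensities were 29 in control 1 and 83 in control 2, and 43 in OE 1 and 33 in OE 2, none of them detected. Before scaling control 1 was thus below both OE rats. Its ratio was 0.345, and 0.940 without control 2. The B subunit had overlapping groups, with adjusted intensities of 32 in control 1 and 81 in control 2, and 171 in OE 1 and 79 in OE 2. It was detected on OE 1 alone. The mean was 5.64 ± 4.75 array medians (SD, n = 2) for the controls and 6.21 ± 2.21 (SD, n = 2) for the OE rats, a ratio of 1.10, which was 0.690 without control 1 and 2.72 without control 2.

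The P1 and P2 genes encode the same mature c subunit with different import sequences. P1 had adjusted intensities of 152 in control 1 and 87 in control 2, and 147 in OE 1 and 227 in OE 2, and was under the detection limit on control 2 only. Its levels were 10.3 ± 0.842 array medians (SD, n = 2) for the controls and 10.0 ± 4.72 (SD, n = 2) for the OE rats, a ratio of 0.976, with OE 2 highest and OE 1 lowest. P2 had adjusted intensities of 3 in control 1 and 13 in control 2, and 94 in OE 1 and 44 in OE 2. Both OE rats lay above both controls, but no value reached 2 times the background. Its levels were 0.840 ± 0.855 array medians (SD, n = 2) for the controls and 3.43 ± 1.19 (SD, n = 2) for the OE rats. Control 1 lay under the floor, and P2 entered the comparison through the OE arrays, where it was higher. Its ratio of 4.08 was 4.14 with the floor at the 1st percentile and 3.48 with it at the 25th. It was 2.38 against control 2 alone, 14.6 against control 1 alone, which stood at the floor, and 1.68 without background subtraction.

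**Figure D4:**
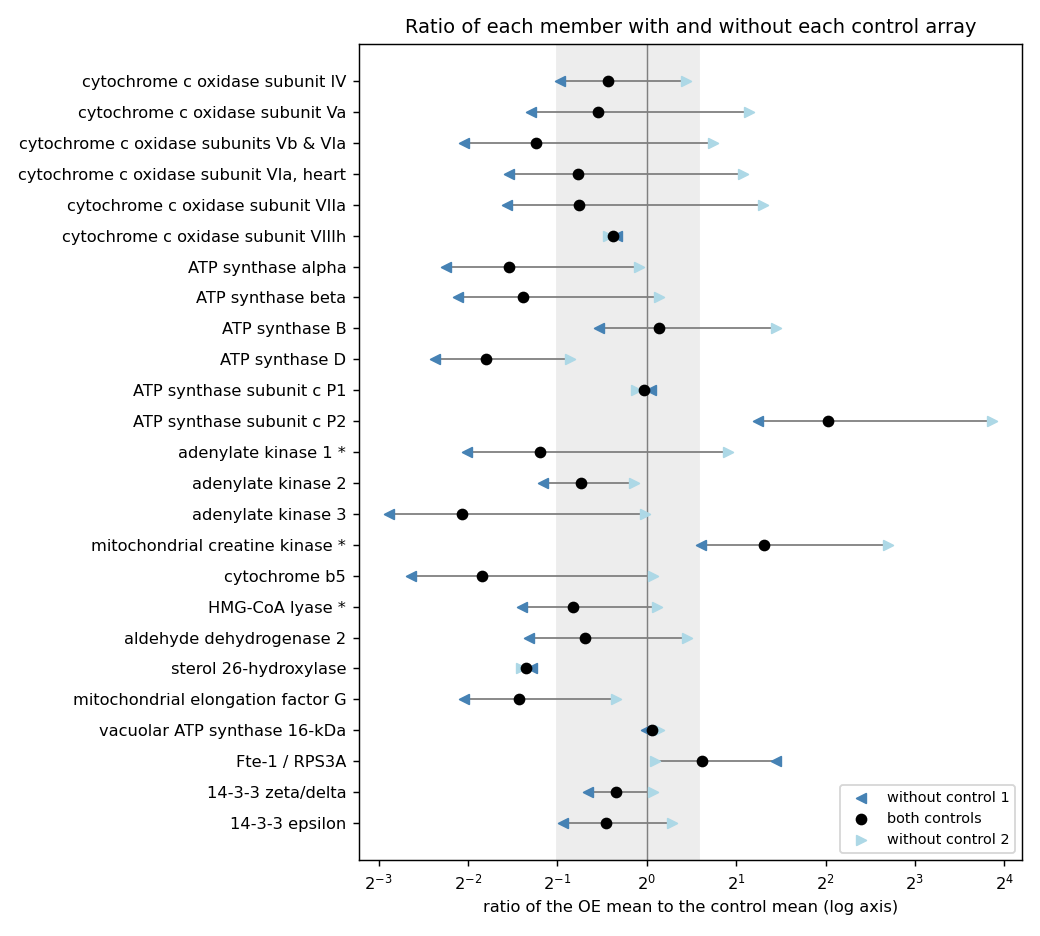
Ratio of the OE mean to the control mean (x axis, log scale) for 25 members with both controls (circles), without control 1 (left triangles) and without control 2 (right triangles); the band spans ratios from 0.5 to 1.5 and an asterisk marks the 3 members that did not enter. Cytochrome c oxidase Va spans 0.406 to 2.21, while subunit VIIIh, subunit c P1 and sterol 26-hydroxylase hardly move.

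Adenylate kinases exchange phosphate between ATP, AMP and ADP, and the mitochondrial form of creatine kinase charges creatine at the mitochondrial membrane. Of these 4 spots, adenylate kinase 3, a matrix enzyme that uses GTP, was the one detected, and on control 2 alone. It had adjusted intensities of 63 in control 1 and 294 in control 2, and 72 in OE 1 and 95 in OE 2. The OE mean was 4.43 ± 1.64 array medians (SD, n = 2) and the control mean 18.6 ± 19.9 (SD, n = 2), of which control 1 had 4.50. The ratio of 0.238 became 0.985 without control 2, and the log2 difference by limma was -1.50 (standard error 1.10, adjusted p = 0.957). Adenylate kinase 2, of the intermembrane space, had adjusted intensities from 3 to 18 and a ratio of 0.600. Adenylate kinase 1, the cytosolic form, had from 3 to 16 and ubiquitous mitochondrial creatine kinase from 0 to 48, and neither entered the comparison. Creatine kinase had 48 on OE 2, where the intestine genes were also high, and at most 9 on the other arrays. The part of intestinal cells in this value was not tested.

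Cytochrome b5 carries electrons to fatty acid desaturases and other enzymes of the endoplasmic reticulum. It had adjusted intensities of 47 in control 1 and 198 in control 2, and 87 in OE 1 and 53 in OE 2, and was detected on control 2 alone. Its levels were 12.7 ± 13.2 array medians (SD, n = 2) for the controls and 3.54 ± 0.592 (SD, n = 2) for the OE rats, a ratio of 0.279. Without control 2 the ratio was 1.05, and limma gave a log2 difference of -1.29 (standard error 1.03, adjusted p = 0.957).

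The other mitochondrial proteins act in the matrix or at the inner membrane outside the respiratory chain. HMG-CoA lyase, an enzyme of leucine breakdown, had adjusted intensities between 3 and 6 and did not enter.

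Mitochondrial elongation factor G, which moves the ribosome along mitochondrial mRNA, had adjusted intensities of 104 in control 1 and 217 in control 2, and 121 in OE 1 and 105 in OE 2. Both OE rats lay below both controls in array medians, with 15.8 ± 11.8 (SD, n = 2) for the controls and 5.84 ± 0.478 (SD, n = 2) for the OE rats. The ratio was 0.370, and 0.786 without control 2, and limma gave a log2 difference of -1.20 (standard error 0.78, adjusted p = 0.957). Sterol 26-hydroxylase, a P450 of bile acid and vitamin D metabolism, was detected on no array, with adjusted intensities of 22 in control 1 and 13 in control 2, and 17 in OE 1 and 7 in OE 2. Its controls were close, at 1.51 ± 0.0898 array medians (SD, n = 2), and both OE rats were lower, at 0.592 ± 0.255 (SD, n = 2). The ratio of 0.393 stayed between 0.273 and 0.512 with any 1 array left out, and limma gave a log2 difference of -1.42 (standard error 0.64, unadjusted p = 0.0767, adjusted p = 0.957). Mitochondrial aldehyde dehydrogenase 2, which clears acetaldehyde, had adjusted intensities between 10 and 22 and a ratio of 0.619.

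The 4 genes matched by name alone were each detected on all 4 arrays and summed to 259 array medians in control 1 and 291 in control 2, and 276 in OE 1 and 283 in OE 2. These even sums were made of unlike members, as both 14-3-3 genes had their highest level in control 2 and Fte-1/RPS3A its lowest. The 16-kDa subunit of the vacuolar ATP synthase, part of the proton pump of lysosomes, had levels of 12.3 ± 0.881 array medians (SD, n = 2) for the controls and 12.8 ± 3.30 (SD, n = 2) for the OE rats, a ratio of 1.04. Its adjusted intensities were 163 in control 1 and 116 in control 2, and 333 in OE 1 and 178 in OE 2. The 14-3-3 proteins bind phosphorylated proteins. Zeta/delta had adjusted intensities of 1288 in control 1 and 1369 in control 2, and 2195 in OE 1 and 1577 in OE 2. Its mean was 122 ± 42.5 array medians (SD, n = 2) for the controls and 96.3 ± 4.96 (SD, n = 2) for the OE rats, a ratio of 0.789. In array medians both OE rats lay between the controls. In adjusted intensity both lay above both controls, and the ratio without scaling was 1.42. Epsilon had adjusted intensities of 471 in control 1 and 702 in control 2, and 893 in OE 1 and 698 in OE 2, and its OE rats also lay between the controls in array medians. Its mean was 55.8 ± 31.4 array medians (SD, n = 2) for the controls and 40.8 ± 0.331 (SD, n = 2) for the OE rats, a ratio of 0.731. With the deposited table of the series, which has lower OE 1 values for both, the ratios were 0.418 for zeta/delta and 0.431 for epsilon. The 40S ribosomal protein Fte-1/RPS3A had adjusted intensities of 1701 in control 1 and 428 in control 2, and 2642 in OE 1 and 2359 in OE 2. In array medians it was the member for which control 2 was lowest, at 47.6 against 121.5 in control 1, 120 in OE 1 and 139 in OE 2. The mean was 84.5 ± 52.3 (SD, n = 2) for the controls and 129 ± 13.2 (SD, n = 2) for the OE rats, with a limma log2 difference of 0.76 (standard error 0.71, adjusted p = 0.957). Its ratio of 1.53 was 1.06 without control 2, and 0.830 with scaling to the housekeeping genes.

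Of related energy genes outside these names, 4 were found. ANT2, the ADP/ATP carrier of the inner membrane, had adjusted intensities of 282 in control 1 and 643 in control 2, and 664 in OE 1 and 392 in OE 2. In array medians it had 20.1 in control 1 and 71.4 in control 2, and 30.2 in OE 1 and 23.1 in OE 2. Its ratio was 0.581, with both OE rats between the controls. Nucleoside diphosphate kinases pass phosphate from ATP to other nucleotides, and their Nm23-M2 and B spots had ratios of 0.655 and 0.584. Nm23-M2 had 15.2 array medians in control 1 and 12.6 in control 2, and 9.55 in OE 1 and 8.65 in OE 2. The B spot had 10.9 in control 1 and 37.0 in control 2, and 17.5 in OE 1 and 10.5 in OE 2. These 3 spots were detected on all 4 arrays. Testis-specific cytochrome c, at adjusted intensities between 0 and 7, lay under the floor in both OE rats, so that no ratio is given. limma called 0 of the 4 in either direction, with an adjusted p of 0.957 each.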

How the data were processed

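Mesenteric white adipose tissue RNA of 2 control and 2 OE rats was hybridized as 33P-labelled cDNA to Atlas nylon arrays, 1 rat per array, and quantified with Atlas Image. The authors deposited intensity values, namely the spot, background and adjusted intensities of 1185 spots, with no scaling between arrays. Samples were grouped by their labels. Each file also held columns of another array, 12 in all, left unused. A table of the series, also of deposited intensity values, was matched to the files by the values of 3 arrays and served as an alternative.

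Adjusted intensities were scaled to the array median (50th percentile), as in the methods, and values under the 10th percentile of all positive ones were raised to it. Genes above the floor on both arrays of a group entered (922). Ratios are of arithmetic means. limma 3.58.1 (R 4.3.3) was fitted to log2 values with a term for group alone and Benjamini-Hochberg adjustment over all genes, after the fit had been tested on simulated data. The number of arrays limits the precision. The p-values rest on the spread between these 4 arrays, which limma draws for each gene toward that of all genes. Members in the text are all those found by the rule, with the value on every array where detected on at least 1. For 1 member the values are not reported here, and it is included in the counts and medians alone. The members, the marker lists and the detection limit of 2 times the background were chosen with earlier results of these data known, and the leukocyte list was kept to 10 of the spots its names match. Upstream sequences are those of RefSeq. Alternatives were other scalings, floors, filters and backgrounds, the series table, geometric means, a replicate block, and leaving out each array.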

Additional observations from a re-analysis of the deposited data

How the results depend on the processing

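Of the 23 members, 9 were under 0.5 and 2 over 1.5. Housekeeping genes as the scale gave 20 and 1 (45.2% and 5.14% of all genes), no scale 2 and 5 (3.04% and 50.7%), and the 75th percentile 8 and 1 (15.2% and 19.2%). Without background subtraction 1 of 25 members was under 0.5 (0.88% of all genes), and with normexp 1 of 25 (0.905%). With the filter on all 4 arrays 1 was over 1.5 (15.0% of all genes). Among the mitochondrial members alone, which were set apart after seeing the data, 1 was over 1.5 (18.9% of all genes). Leaving out each array gave between 1 and 16 members under 0.5 (12% to 31.0% of all genes). It gave between 1 and 7 over 1.5 (19.4% to 29.6% of all genes). The extremes of the members came from the 2 controls, except the single member over 1.5 without OE 2. The median log2 ratio ran from -1.31 (without control 1) to 0.26 (no scaling), and the median of all genes from -0.91 (housekeeping) to 0.63 (no scaling). Without control 1 and without control 2, the ratios were 0.242 and 1.68 for cytochrome c oxidase Vb & VIa, 0.232 and 1.10 for ATP synthase beta and 0.161 and 1.05 for cytochrome b5, turning in the latter case, and that of Fte-1/RPS3A was 0.830 with the housekeeping genes. The cause was not tested. limma called 0 members in every setting run, with a lowest member adjusted p of 0.171 (without control 1, the remaining control assumed to vary like the OE arrays), where 13 of 26 members and 258 of 1011 genes had an unadjusted p under 0.05. Same-numbered arrays did not deviate together (correlation 0.0495 across genes), and the replicate block called 0 members, with 1 at an unadjusted p under 0.05. The series table had another OE 1 value in 239 of 932 matched spots, among them 2 members, both 14-3-3 genes (194 for zeta/delta and 149 for epsilon against 2195 and 893). It gave 11 members under 0.5 (20.9% of all genes) and 2 over 1.5 (23.9%). Signals under 2 times the background limit 10 of the 22 mitochondrial members on all arrays.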
